A study of Mus musculus with 8 samples.

Results

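The genes described here encode the subunits of potassium, voltage-gated sodium and voltage-gated calcium channels, the TRP cation channels and the mechanically gated Piezo channels. They were taken by gene symbol from the protein-coding rows of the deposited table, which gave 160 of 45777 genes. Among them, Trpc4ap encodes a TRPC4-associated protein and Trpc5os a gene opposite Trpc5, and neither is a channel by name. The study compared primary hepatic stellate cells of male wild-type C57BL/6 mice transfected with an siRNA against PAK4 (siPAK4, 4 libraries) with the same kind of cells transfected with a control siRNA (siControl, 4 libraries), during their activation. All 8 libraries carry 1 batch label. Stellate cells are pericytes of the liver that hold its vitamin A, and once activated they become contractile and lay down collagen. PAK4 is a serine/threonine kinase that binds the small GTPase CDC42 and regulates actin. The labels give no animal age, siRNA sequence or time after transfection, and they do not say whether replicates came from separate animals or dishes, so the p-values measure a spread between libraries that may be technical.

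Ion channels set the membrane potential and let calcium into the cell. Potassium channels hold the membrane negative, voltage-gated sodium and calcium channels open when it depolarises, and TRP and Piezo channels pass cations in response to lipids, ligands, temperature or stretch. A pore is formed by alpha subunits, and auxiliary subunits change how the pore opens or how it reaches the membrane. Calcium that enters through such channels, or leaves internal stores, drives contraction of smooth muscle and myofibroblasts through calmodulin.

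The potassium channel genes share a coding stretch that the choice by symbol did not use, the selectivity filter of the pore. It was searched for in reading frame as 5 codons in a row, which are any codon for threonine, any codon with T in the middle, any codon for glycine, any codon that begins with T and again any codon for glycine. The longest coding sequence of each gene was read (GENCODE M21, build GRCm38, the same assembly as mm10, coding strand only). The match occurred in 64 of 77 pore-forming potassium channel genes (83.1%), in 0 of the 81 other channel genes with a coding sequence, and in 187 of 21562 genes of the annotation (0.867%). Of the 14 2-pore-domain genes, 11 held 2 matches and 1 held a single match, while no gene of another class held more than 1. The stretches below are those of potassium channel genes that the results turn on. Capitals mark the matched letters, and each line has 12 bases on either side, 5′ to 3′ along the gene. Kcng3 (chr17:83587902-83587940, minus strand) and Kcnj2 (chr11:111072195-111072233, plus strand) rose, and Kcna5 (chr6:126533733-126533771, minus strand) fell with siPAK4. Kcnk5, which also fell, shows the first match across an exon junction (chr14:20145103-20146519, minus strand) and the second within an exon (chr14:20144636-20144674, minus strand).
Kcng3: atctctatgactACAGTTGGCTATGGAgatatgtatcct
Kcnj2: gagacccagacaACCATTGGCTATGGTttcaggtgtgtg
Kcna5: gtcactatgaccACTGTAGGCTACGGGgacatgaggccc
Kcnk5, first match: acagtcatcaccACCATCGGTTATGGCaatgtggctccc
Kcnk5, second match: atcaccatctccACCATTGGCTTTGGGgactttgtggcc

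Library totals ran from 55728583 to 59205049 counts in siPAK4 and from 57297561 to 61535063 counts in siControl. Pak4 itself averaged 6.32 ± 1.13 CPM in siPAK4 and 17.2 ± 1.14 CPM in siControl (SD, n = 4 each), and the groups did not overlap (log2 fold change −1.44, SE 0.118, adjusted p = 9.4e-06). Values of single libraries are given in the order of replicates 1 to 4. CPM values here are counts scaled to the TMM-adjusted library size, and adjusted p-values come from edgeR's quasi-likelihood test adjusted by Benjamini-Hochberg across the 17975 genes tested, with 0.05 as the threshold for a gene that rose or fell. Library siPAK4 replicate 3 stood apart from the other siPAK4 libraries on the second principal component (13.3% of the variance), and it was the lowest of the 4 siPAK4 libraries for 14 and the highest for 4 of the 27 channel genes that changed. All 27 stayed called without it, and the value without it is given beside several of these genes. The 10 stellate markers summed to 688 to 808 CPM in siPAK4 and 844 to 1050.2 CPM in siControl libraries (4 of 9 tested lower, 1 higher). Among them, Dcn (averaging 479 CPM in siPAK4 and 425 CPM in siControl) and Reln (34.7 CPM in siPAK4 and 30.9 CPM in siControl) did not pass the test. The lower ones include Acta2 (log2 fold change −1.63, adjusted p = 1.3e-05), Col1a1 (log2 fold change −1.42, adjusted p = 0.0014) and Pdgfrb (log2 fold change −0.85, adjusted p = 4.3e-04). Lrat had 11, 11, 22 and 7 counts in siPAK4 libraries, against 2, 4, 0 and 0 counts in siControl libraries. Markers of other liver cells were abundant: 12 macrophage markers summed to 5099 to 8265 CPM in siPAK4 and 9136 to 10592 CPM in siControl libraries (8 of 11 tested lower, 0 higher), and 11 endothelial markers to 3664 to 5347 CPM in siPAK4 and 6173 to 6386 CPM in siControl libraries (6 of 11 lower, 3 higher). Lyz2 made up most of the macrophage sum, averaging 4850 CPM in siPAK4 and 7815 CPM in siControl. Adgre1 (425 CPM in siPAK4 and 386 CPM in siControl), Cd68 (234 CPM in siPAK4 and 241 CPM in siControl) and the scarce Timd4 did not pass. In siPAK4 replicate 3 the macrophage sum was the highest of its group and the endothelial sum the lowest. The 6 smooth muscle markers summed to 30.1 to 47.5 CPM in siPAK4 and 50.1 to 61.7 CPM in siControl (4 of 6 lower, 0 higher), and the 8 Schwann and neuronal markers to 27.0 to 36.3 CPM in siPAK4 and 48.1 to 52.0 CPM in siControl (2 of 4 tested lower, 0 higher), with Sox10 at 0 in every library. Most of the smooth muscle sum was Smtn (averaging 35.4 CPM in siPAK4 and 46.4 CPM in siControl), which did not pass. The 6 mesothelial markers summed to 63.9 to 99.0 CPM in siPAK4 and 183 to 238 CPM in siControl (4 of 6 lower, 0 higher). Hepatocyte markers (6 genes) summed to 6.30 to 16.1 CPM in siPAK4 and 1.31 to 3.05 CPM in siControl (2 of 3 tested higher, 0 lower), and the 6 lymphocyte markers to 1.04 to 1.53 CPM in siPAK4 and 0.993 to 1.2 CPM in siControl (0 of 2 tested past the threshold). Apart from Sox10, each of these markers had a read in some library. In bulk RNA fewer cells of a type and less RNA per cell cannot be told apart, and the part of these cell types in the channel results was not tested.

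Most channel genes had few or no reads in these cells. Of the 160 genes, 27 had no read in any library (19 of 94 potassium, 1 of 14 sodium, 4 of 26 calcium and 3 of 22 TRP channel genes), 50 had reads but too few to test (at most 67 counts over all 8 libraries), and 83 were tested. By the deposited TPM, which is scaled to gene length and so allows levels of different genes to be compared, 13 genes averaged at least 10 TPM, 19 between 1 and 10 TPM and 128 under 1 TPM. Over all 8 libraries Piezo1, the stretch-gated cation channel, had the highest mean, with 66.2 ± 12.3 TPM in siPAK4 and 86 ± 10.9 TPM in siControl (SD, n = 4 each). Next came Kcnj8, the pore subunit of an ATP-sensitive potassium channel (74.3 ± 12.2 TPM in siPAK4 and 56.2 ± 1.75 TPM in siControl), followed by Trpc4ap. The cation channels Trpv2 (51.3 ± 3.63 TPM in siPAK4 and 48.6 ± 0.989 TPM in siControl) and Trpm7 (49.1 ± 1.94 TPM in siPAK4 and 46.9 ± 3.5 TPM in siControl) were also among the highest. In siPAK4 the order of the first pair was turned, with Kcnj8 above Piezo1 on average, and their library values overlapped there; in siControl each Piezo1 value was above each Kcnj8 value. Trpv2 and Trpm7 had overlapping values in both groups. Summed over the 160 genes, the level was 509 to 608 TPM in siPAK4 libraries and 557 to 619 TPM in siControl libraries, and the ranges overlap.

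**Figure D1:**
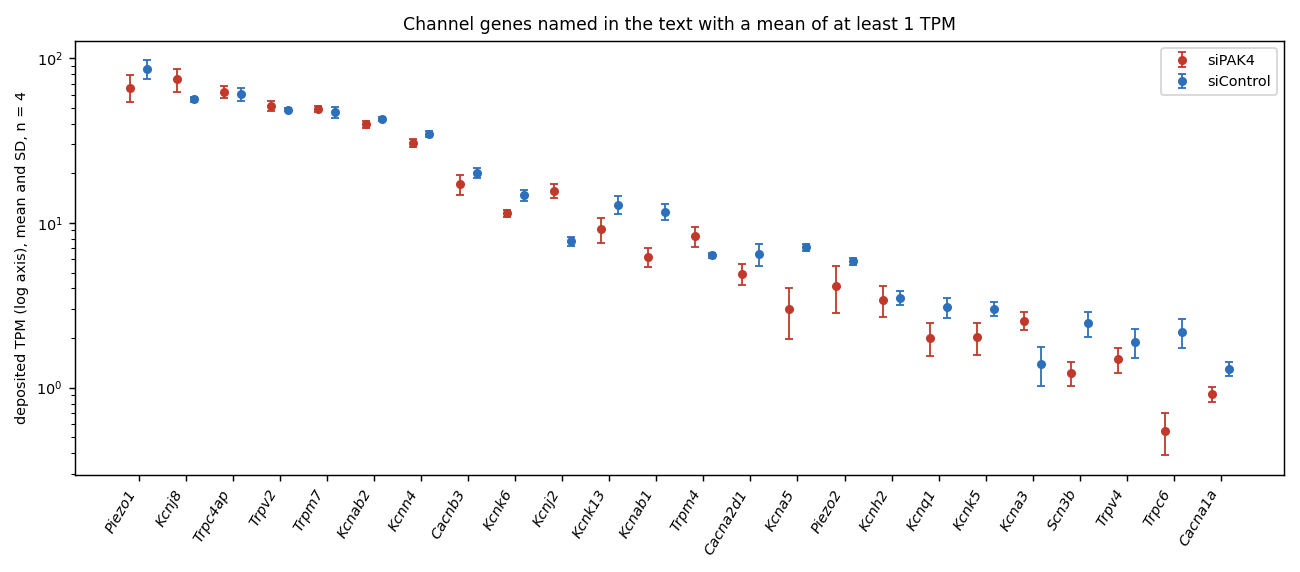
Mean deposited TPM (log axis) with SD bars over 4 libraries for the 24 genes named in the text with a mean of at least 1 TPM, siPAK4 in red left of siControl in blue, ordered by the mean of all 8 libraries. Piezo1 and Kcnj8 lead, and Kcnj2 stands higher and Kcnab1 and Trpc6 lower in siPAK4.

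With siPAK4 27 of the 83 tested channel genes changed (32.5%, where 26.9% of all tested genes did). More fell than rose: 20 fell (24.1%, against 14.5% of all tested genes) and 7 rose (8.43%, against 12.4% of all tested genes), and 56 did not pass. The median log2 fold change of the tested channel genes was −0.22, against 0.0052 for all tested genes, and 55 of 83 (66.3%) had a negative value, against 49.2% of all. No test of the channel genes as a list was made. Among the called genes 25.9% rose, against 46.1% of all called genes, a share that was 67.6% of all genes and 32% of the channel genes when libraries were scaled by their totals. Without siPAK4 replicate 3, 25 channel genes fell and 7 rose, and all 27 calls were among them. The siPAK4 and siControl libraries did not overlap for 31 of the 83 tested channel genes, where 28.8% of all tested genes had no overlap. Of the 32 channel genes with at least 1 TPM, 15 fell (46.9%), 4 rose (12.5%) and 13 did not pass. Among all tested genes at that level 16.2% fell and 14.1% rose. Called changes of at least 2-fold were found for 11 channel genes, 9 lower and 2 higher, which is 13.3% of those tested. Among all tested genes the share was 4.62%, with 2.6% lower and 2.02% higher. The tested channel genes were scarcer, with a median level of 1.35 CPM against 13.4 CPM for all tested genes. The 5 called channel genes under 1 CPM are all among the 11, and these 2-fold shares were not matched for level.

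**Figure D2:**
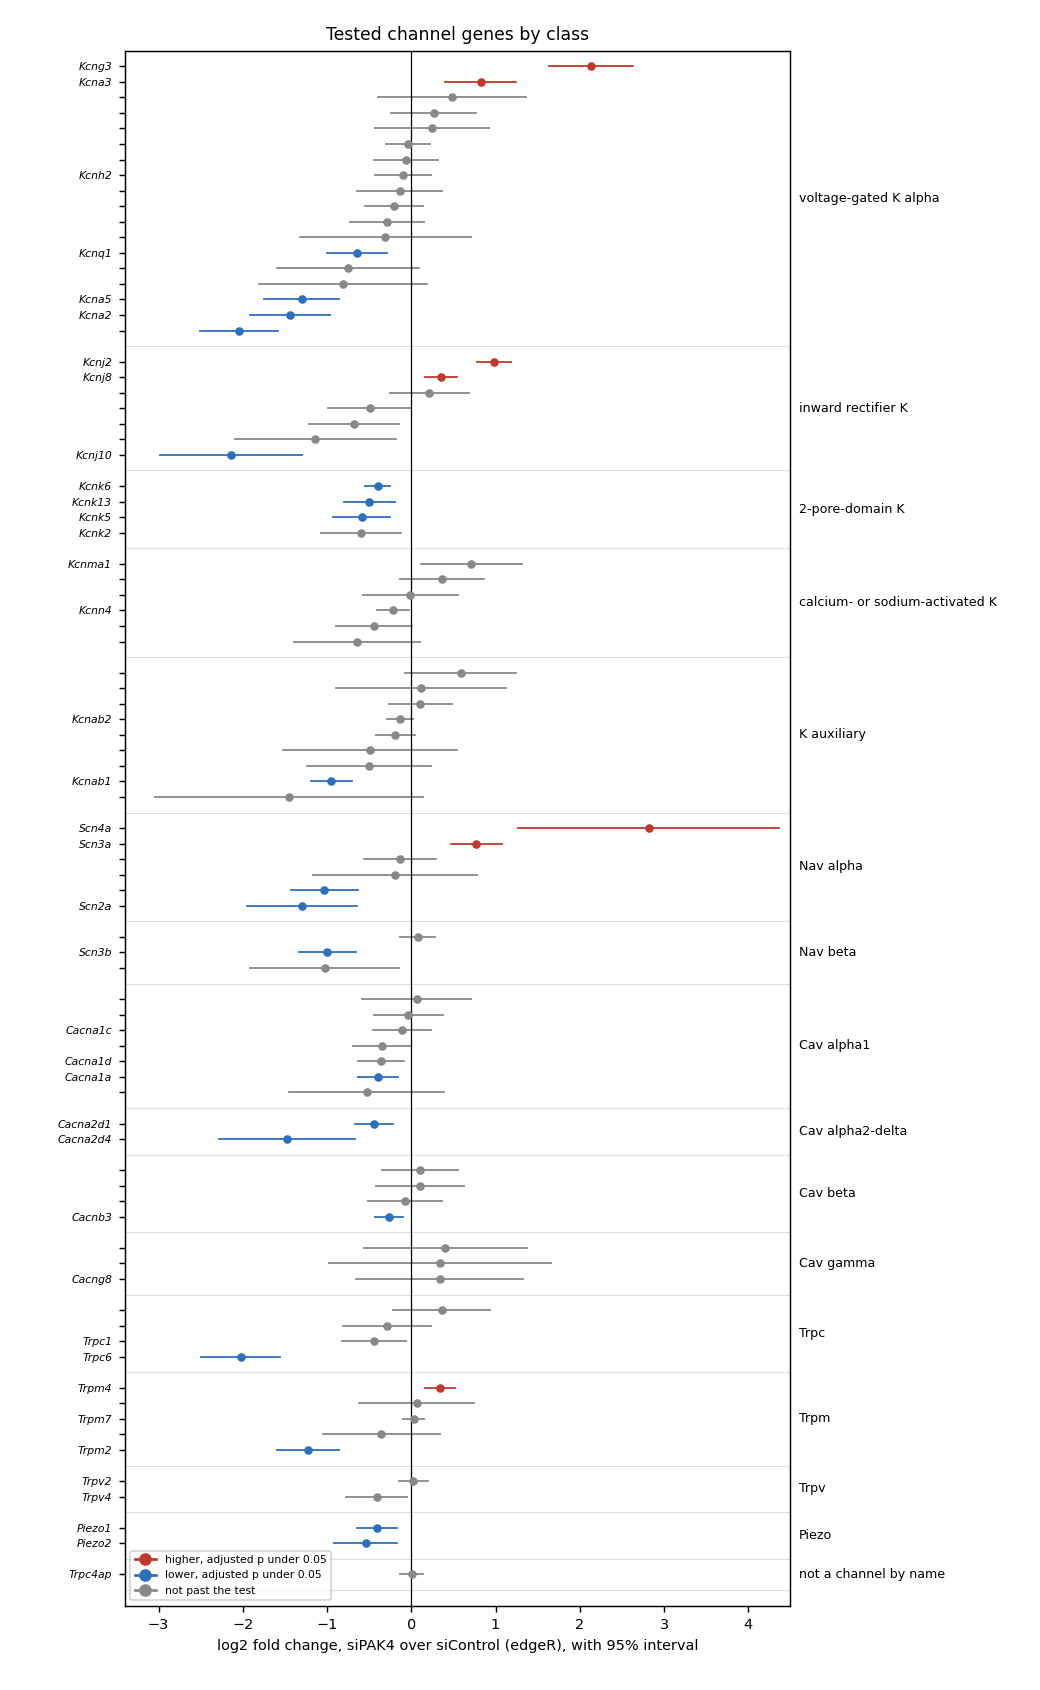
Log2 fold change, siPAK4 over siControl, of each of the 83 tested genes with its 95% interval, grouped by subunit class; red genes rose, blue genes fell and grey genes did not pass at an adjusted p of 0.05, with names only for genes named in the text. In the 2-pore-domain class all 4 values lie below 0, and the voltage-gated potassium and Nav alpha classes hold called genes on both sides.

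Voltage-gated potassium alpha subunits, which repolarise the membrane, went both ways: of 18 tested (40 listed), 4 fell, 2 rose and 12 did not pass (median −0.17). Kcna5 (mm10 chromosome 6, 126532551 to 126535555), which encodes Kv1.5, had 4.7, 4.18, 2.2 and 5.16 CPM in siPAK4 libraries, against 10.2, 10.3, 9.22 and 10.3 CPM in siControl libraries. The groups did not overlap, the siControl libraries lay close together, and siPAK4 replicate 3 was lowest (log2 fold change −1.30, SE 0.201, adjusted p = 7.0e-04; −1.10, adjusted p = 9.9e-06 without it). Kcnq1, which encodes Kv7.1, had 3.25, 2.57, 2.16 and 2.42 CPM in siPAK4 libraries, against 3.54, 4.22, 3.5 and 5.04 CPM in siControl libraries. It was lower in all siPAK4 libraries, by a narrow margin (log2 fold change −0.65, SE 0.164, adjusted p = 0.012; −0.57, adjusted p = 0.021 without siPAK4 replicate 3). The antisense transcript Kcnq1ot1 overlaps 2.96% of the exon bases of Kcnq1 and drew far more reads, averaging 157 ± 17.2 CPM in siPAK4 and 172 ± 24.6 CPM in siControl. The strand setting of the counting is not given, so reads of the pair that lie in the shared bases cannot be told apart. Kcnq1ot1 did not pass (log2 fold change −0.14, adjusted p = 0.37). Kcna2 (Kv1.2) was scarce and fell, with 22, 29, 28 and 23 counts in siPAK4 libraries, against 69, 76, 53 and 68 counts in siControl libraries (log2 fold change −1.44, adjusted p = 5.4e-04). Of the 6 smooth muscle markers given above, 4 were likewise lower in siPAK4 and 0 higher. Smtn, which held most of their summed CPM, did not pass (log2 fold change −0.39, adjusted p = 0.081). The part of smooth muscle cells in the fall of Kcna5 was not tested.

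Kcng3 (mm10 chromosome 17, 83574023 to 83631995) had the largest rise among the called channel genes with at least 1 CPM. Its product Kv6.3 forms no channel by itself and modifies other voltage-gated potassium channels. It had 4.23, 4.39, 2.58 and 3.56 CPM in siPAK4 libraries, against 1.21, 0.679, 0.713 and 0.76 CPM in siControl libraries. The groups stood far apart, with siPAK4 replicate 3 the lowest of its group and siControl replicate 1 the highest of its own (log2 fold change 2.13, SE 0.228, adjusted p = 5.1e-05; 2.27, adjusted p = 5.9e-06 without siPAK4 replicate 3). Kcna3, which encodes the Kv1.3 channel of lymphocytes and macrophages, had 2.23, 2.38, 2.01 and 2.52 CPM in siPAK4 libraries, against 1.52, 0.858, 1.56 and 1.22 CPM in siControl libraries. It was higher in every siPAK4 library (log2 fold change 0.82, SE 0.192, adjusted p = 0.0082; 0.88, adjusted p = 0.0056 without replicate 3). The 12 genes that did not pass include Kcnh2, the hERG channel gene (log2 fold change −0.10, 95% interval −0.43 to 0.23, adjusted p = 0.67).

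Inward rectifiers, which conduct near the resting potential, held the rise with the lowest adjusted p among channel genes. Of 7 tested (15 listed), 2 rose, 1 fell and 4 did not pass (median −0.50). Kcnj2 (mm10 chromosome 11, 111066164 to 111076825), which encodes Kir2.1, had 34.2, 38.6, 46.3 and 36.5 CPM in siPAK4 libraries, against 20.9, 18.3, 19.5 and 20.0 CPM in siControl libraries. The groups were clearly apart and the siControl libraries close together; siPAK4 replicate 3 was the highest (log2 fold change 0.98, SE 0.0916, adjusted p = 2.0e-05; 0.89, adjusted p = 2.3e-06 without it). The mean was 1.98-fold that of siControl. Kcnj8 (mm10 chromosome 6, 142564837 to 142571614), which encodes Kir6.1, had 91.1, 87.4, 70.0 and 94.1 CPM in siPAK4 libraries, against 63.6, 65.2, 67 and 72 CPM in siControl libraries. Here siPAK4 replicate 3 fell within the siControl range and the other siPAK4 libraries lay above it (log2 fold change 0.36, SE 0.0861, adjusted p = 0.0099; 0.44, adjusted p = 9.6e-05 without replicate 3). Its partner Abcc9, the SUR2 sulphonylurea receptor, overlapped between the groups (log2 fold change 0.07, adjusted p = 0.65), and the other receptor gene Abcc8 had no read in any library. Kcnj10, the Kir4.1 channel of glia, was scarce and fell, with 7, 11, 9 and 26 counts in siPAK4 libraries, against 62, 74, 50 and 40 counts in siControl libraries (log2 fold change −2.14, adjusted p = 0.0018).

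All 4 tested 2-pore-domain genes, the background or leak potassium channels, had negative values, with 3 falls (14 listed, median −0.54). Among all tested genes 49.2% had a negative value and 14.5% fell. Kcnk6 (mm10 chromosome 7, 29221928 to 29232522), which encodes TWIK-2, had 21.4, 19.5, 21.9 and 22.6 CPM in siPAK4 libraries, against 29.5, 26.7, 29.4 and 26.9 CPM in siControl libraries. The groups did not overlap and the spread within each was small (log2 fold change −0.40, SE 0.0688, adjusted p = 0.0013). Kcnk13, which encodes the THIK-1 channel of microglia, had 11.8, 11.6, 17.8 and 13.9 CPM in siPAK4 libraries, against 17, 22.1, 21.1 and 17.8 CPM in siControl libraries. Replicate 3 of siPAK4 lay inside the siControl range (log2 fold change −0.50, SE 0.137, adjusted p = 0.019), and the call was lost without siControl replicate 2, siControl replicate 3, siPAK4 replicate 1 or siPAK4 replicate 2 (adjusted p up to 0.065), while without siPAK4 replicate 3 the value was −0.65, adjusted p = 5.3e-04. Kcnk5, which encodes TASK-2, had 3.06, 3.16, 2.4 and 4.07 CPM in siPAK4 libraries, against 5.24, 4.91, 4.19 and 4.72 CPM in siControl libraries. It was lower in each siPAK4 library (log2 fold change −0.59, SE 0.155, adjusted p = 0.015; −0.47, adjusted p = 0.021 without replicate 3). Kcnk2, the mechanosensitive TREK-1 channel gene, had 0.726, 0.612, 0.616 and 0.801 CPM in siPAK4 libraries, against 0.903, 1.07, 0.832 and 1.36 CPM in siControl libraries. The groups were just apart, but the gene did not pass (log2 fold change −0.60, 95% interval −1.07 to −0.12, adjusted p = 0.064); 12.2% of its exon bases are shared with a gene on the opposite strand.

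None of the 6 tested calcium- or sodium-activated potassium channel genes passed (8 listed, median −0.11). Kcnn4, the intermediate-conductance KCa3.1 channel gene, had the highest TPM of them, with 27, 24.2, 32.1 and 30.1 CPM in siPAK4 libraries, against 30.7, 33.6, 32.5 and 35 CPM in siControl libraries. Replicate 3 of siPAK4 reached into the siControl range and replicate 4 came close to it (log2 fold change −0.22, 95% interval −0.41 to −0.03, adjusted p = 0.088), and without siPAK4 replicate 3 the gene was called lower, as was Kcnt2, a sodium-activated channel gene (Kcnn4 −0.28, adjusted p = 0.017). Kcnma1, the large-conductance BK channel gene, had 0.933, 1.41, 1.03 and 0.75 CPM in siPAK4 libraries, against 0.47, 0.465, 0.883 and 0.69 CPM in siControl libraries. The groups overlapped (log2 fold change 0.71, 95% interval 0.11 to 1.31, adjusted p = 0.076), and it was called higher with library totals (0.81, adjusted p = 0.045) or without siControl replicate 3 (0.93, adjusted p = 0.042). Among 9 tested auxiliary potassium subunits (17 listed, median −0.19) 1 fell. That was Kcnab1 (mm10 chromosome 3, 64949212 to 65378225), the Kv beta-1 subunit, with 8.14, 10.5, 10.4 and 11.9 CPM in siPAK4 libraries, against 20.2, 21.5, 20.0 and 17.2 CPM in siControl libraries. The siPAK4 libraries lay well below the siControl libraries (log2 fold change −0.95, SE 0.112, adjusted p = 9.9e-05), and its relative Kcnab2, higher by TPM, did not pass (log2 fold change −0.13, 95% interval −0.29 to 0.02, adjusted p = 0.2) except without siPAK4 replicate 3. Kcnmb1, the BK beta-1 subunit of smooth muscle, was scarce, with 21, 9, 2 and 0 counts in siPAK4 libraries, against 16, 19, 38 and 13 counts in siControl libraries (log2 fold change −1.45, 95% interval −3.04 to 0.14, adjusted p = 0.17); it was called lower without siPAK4 replicate 1.

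**Figure D3:**
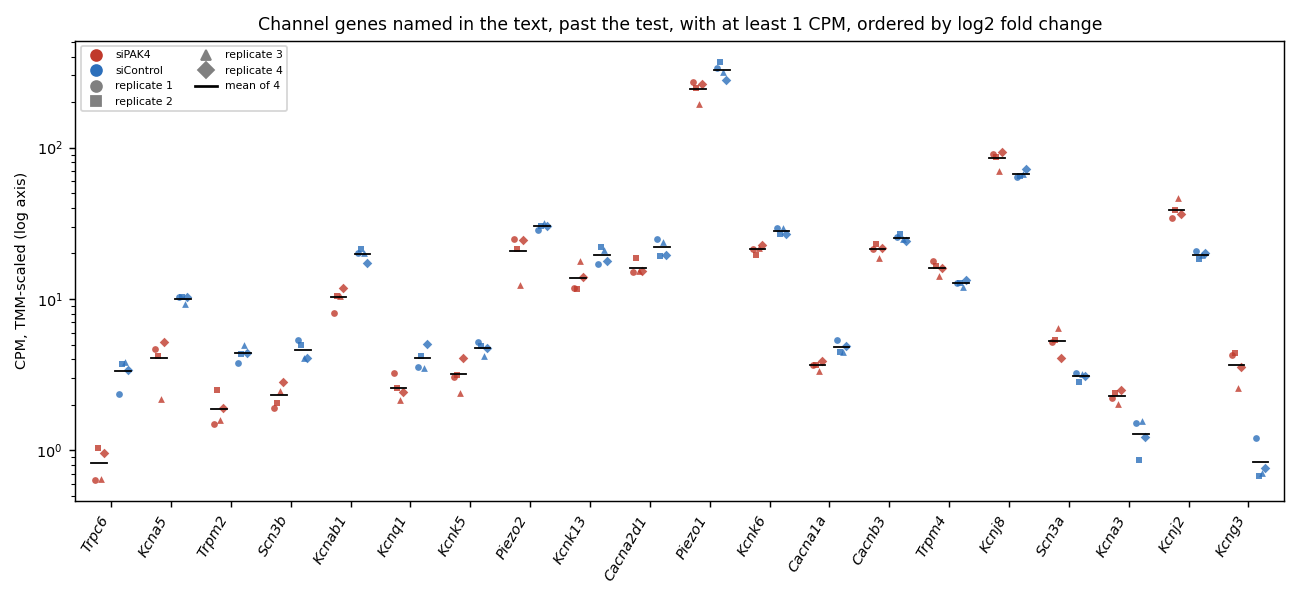
CPM of each library (log axis) for the 20 channel genes named in the text that passed the test with a mean of at least 1 CPM, siPAK4 in red left of siControl in blue, with replicates as symbols and group means as bars, ordered from the largest fall shown (Trpc6) to the largest rise (Kcng3). The triangles of siPAK4 replicate 3 sit lowest of their group for Kcna5, Kcng3 and Piezo2 and highest for Kcnk13 and Kcnj2.

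Sodium channel alpha subunits, which form the pore of the fast depolarising current, also split: of 6 tested (10 listed), 2 fell, 2 rose and 2 did not pass. Scn3a, the Nav1.3 gene, had 5.24, 5.37, 6.39 and 4.05 CPM in siPAK4 libraries, against 3.23, 2.82, 3.17 and 3.09 CPM in siControl libraries. All siPAK4 libraries were above the siControl libraries (log2 fold change 0.77, SE 0.14, adjusted p = 0.0018; 0.66, adjusted p = 0.0022 without siPAK4 replicate 3). Scn2a, the Nav1.2 gene, averaged under 1 CPM and fell, with 16, 22, 44 and 33 counts in siPAK4 libraries, against 68, 49, 91 and 65 counts in siControl libraries (log2 fold change −1.30, adjusted p = 0.0076). Schwann and neuronal markers summed to 27.0 to 36.3 CPM in siPAK4 and 48.1 to 52.0 CPM in siControl libraries, and their part in this fall was not tested. Scn4a, the skeletal muscle gene, was near the limit of detection and was called higher, with 31, 43, 19 and 35 counts in siPAK4 libraries, against 12, 0, 0 and 5 counts in siControl libraries (log2 fold change 2.82, SE 0.707, adjusted p = 0.012). The size of this value is uncertain, since it was 4.12, adjusted p = 0.0039 without siControl replicate 1 and 3.88, adjusted p = 0.0055 by limma-voom. Of the beta subunits, which modify gating and act in cell adhesion, 3 were tested (4 listed) and 1 fell: Scn3b had 1.9, 2.06, 2.46 and 2.81 CPM in siPAK4 libraries, against 5.38, 4.93, 4.07 and 4.09 CPM in siControl libraries. Each siPAK4 library was below each siControl library (log2 fold change −0.999, SE 0.155, adjusted p = 6.5e-04).

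Among the voltage-gated calcium channel genes 4 of 16 tested fell and none rose, where 14.5% of all tested genes fell and 12.4% rose. Each of the 4 lost its call in at least 1 alternative. Of 7 tested alpha1 subunits (10 listed), which form the calcium pore, 1 fell and 6 did not pass (median −0.34). Cacna1a, the P/Q-type channel gene, had 3.65, 3.67, 3.36 and 3.92 CPM in siPAK4 libraries, against 5.35, 4.47, 4.48 and 4.88 CPM in siControl libraries. The groups did not overlap (log2 fold change −0.39, SE 0.109, adjusted p = 0.02), and the call was lost with library totals (adjusted p = 0.054), with log2(TPM + 0.1) or without siControl replicate 1. Cacna1c, the L-type channel gene of smooth and cardiac muscle, had 1.28, 1.41, 1.28 and 1.47 CPM in siPAK4 libraries, against 1.26, 1.63, 1.56 and 1.41 CPM in siControl libraries. These values overlapped (log2 fold change −0.11, 95% interval −0.45 to 0.23, adjusted p = 0.65). Cacna1d, another L-type gene, was just short of the threshold (log2 fold change −0.36, 95% interval −0.63 to −0.09, adjusted p = 0.052), and it was called lower by DESeq2, with a filter at 1 CPM and without siControl replicate 4.

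Both tested alpha2-delta subunits, which carry the pore to the membrane, fell (4 listed). Cacna2d1 (mm10 chromosome 5, 15934264 to 16374511), the target of gabapentin, had 15.2, 18.5, 15.3 and 15.4 CPM in siPAK4 libraries, against 25, 19.2, 23.8 and 19.6 CPM in siControl libraries. Replicate 2 was the highest siPAK4 library and came close to the lowest siControl library (log2 fold change −0.45, SE 0.103, adjusted p = 0.0077); the call was lost on log2 TPM (adjusted p up to 0.083). Cacna2d4 was scarce, with 14, 7, 9 and 10 counts in siPAK4 libraries, against 38, 29, 25 and 16 counts in siControl libraries (log2 fold change −1.48, adjusted p = 0.012). Of 4 beta subunits, which bind the pore from the cytoplasm, Cacnb3 fell (mm10 chromosome 15, 98628436 to 98644536), with 21.5, 23.1, 18.6 and 21.8 CPM in siPAK4 libraries, against 25.7, 26.8, 25.1 and 24.4 CPM in siControl libraries. The groups did not overlap but the difference was small (log2 fold change −0.26, SE 0.0743, adjusted p = 0.021; −0.21, adjusted p = 0.027 without siPAK4 replicate 3), and it was lost with library totals, on log2 TPM or without siControl replicate 2 (adjusted p up to 0.14). None of 3 tested gamma subunits passed (8 listed). Cacng8, a member of this family that regulates AMPA receptors and the one with the highest TPM among the tested 3, had 36, 19, 18 and 7 counts in siPAK4 libraries, against 12, 17, 11 and 21 counts in siControl libraries (log2 fold change 0.34, 95% interval −0.66 to 1.33, adjusted p = 0.64). Its groups overlapped, and the sign turned without siPAK4 replicate 1 (log2 fold change −0.12).

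Among TRP channels, Trpc6 and Trpm2 fell, Trpm4 rose, and the abundant Trpm7 and Trpv2 showed no detectable difference. Of 11 tested genes (22 listed), 8 did not pass. Trpc6 (mm10 chromosome 9, 8543867 to 8680752), a diacylglycerol-activated calcium entry channel, had 0.639, 1.04, 0.649 and 0.954 CPM in siPAK4 libraries, against 2.37, 3.72, 3.85 and 3.41 CPM in siControl libraries. Every siPAK4 library was below every siControl library by more than 2-fold (log2 fold change −2.02, SE 0.215, adjusted p = 4.9e-05). Its relative Trpc1 had 1.19, 1.51, 1.63 and 1.06 CPM in siPAK4 libraries, against 1.72, 2.05, 1.71 and 1.86 CPM in siControl libraries. The groups were apart, but the gene did not pass (log2 fold change −0.44, 95% interval −0.83 to −0.06, adjusted p = 0.083) except without siPAK4 replicate 3 (−0.55, adjusted p = 0.043). Trpm2 (mm10 chromosome 10, 77907722 to 77969909), which opens on ADP-ribose under oxidative stress and is found in phagocytes, had 1.5, 2.5, 1.58 and 1.91 CPM in siPAK4 libraries, against 3.77, 4.36, 4.97 and 4.4 CPM in siControl libraries. There was no overlap (log2 fold change −1.22, SE 0.17, adjusted p = 3.1e-04). Of the 11 tested macrophage markers, 8 were lower and 0 higher in siPAK4, beside this fall and that of Kcnk13. Among other genes placed here in macrophages or phagocytes, Kcna3 (log2 fold change 0.82, adjusted p = 0.0082) and Hvcn1 (log2 fold change 0.47, adjusted p = 1.8e-04) rose. Trpv2 did not pass (log2 fold change 0.03, adjusted p = 0.85). The part of macrophages in these values was not tested. Trpm4, a calcium-activated channel for monovalent cations, had 17.8, 16.6, 14.2 and 15.9 CPM in siPAK4 libraries, against 12.8, 12.8, 12 and 13.4 CPM in siControl libraries. It was higher in each siPAK4 library by a modest amount (log2 fold change 0.34, SE 0.0817, adjusted p = 0.0098; 0.39, adjusted p = 0.0018 without replicate 3).

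Trpm7 (mm10 chromosome 2, 126791558 to 126876261), a channel joined to a kinase that passes magnesium, zinc and calcium, had 151, 159, 166 and 161 CPM in siPAK4 libraries, against 160.4, 149, 167 and 149 CPM in siControl libraries. Its groups overlapped and the interval spans a small range (log2 fold change 0.03, 95% interval −0.10 to 0.15, adjusted p = 0.77). Trpv2, a cation channel abundant in macrophages, had 65.1, 65.9, 85 and 70.4 CPM in siPAK4 libraries, against 67.2, 71.1, 70.9 and 72.2 CPM in siControl libraries. Replicate 3 of siPAK4 was the highest of all 8 libraries (log2 fold change 0.03, 95% interval −0.15 to 0.20, adjusted p = 0.85), and without it the sign turned (log2 fold change −0.07, adjusted p = 0.36). Trpv4, an osmotically and mechanically sensitive channel, had 1.97, 1.87, 2.6 and 1.91 CPM in siPAK4 libraries, against 3.41, 2.75, 2.7 and 2.25 CPM in siControl libraries. Here too siPAK4 replicate 3 was the highest of its group and the groups overlapped (log2 fold change −0.41, 95% interval −0.78 to −0.05, adjusted p = 0.091; −0.54, adjusted p = 0.027 without replicate 3). Trpc4ap, not a channel itself, had 93.2, 89.2, 86.2 and 93.3 CPM in siPAK4 libraries, against 90.4, 93.7, 95.6 and 81.5 CPM in siControl libraries. It did not differ beyond the spread of the libraries (log2 fold change 0.0034, 95% interval −0.13 to 0.14, adjusted p = 0.98), and the sign of this near-zero value turned in 4 of 17 alternatives. Trpa1, the irritant receptor, had too few reads to test.

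Both Piezo genes, whose channels open when the membrane is stretched, were called lower. Piezo1 (mm10 chromosome 8, 122481698 to 122551329) had 273, 249, 196 and 263 CPM in siPAK4 libraries, against 337, 370.3, 318 and 278 CPM in siControl libraries. The highest siPAK4 library, replicate 1, was just below the lowest siControl library, replicate 4 (log2 fold change −0.41, SE 0.108, adjusted p = 0.015), and the call was lost on log2 TPM or without siControl replicate 2 (adjusted p up to 0.070); without siPAK4 replicate 3 the value was −0.32, adjusted p = 0.01. Piezo1 shares 24.6% of its annotated exon bases with Ctu2 on the opposite strand, which averaged 18 ± 1.41 CPM in siPAK4 and 14.9 ± 1.21 CPM in siControl and rose (log2 fold change 0.27, adjusted p = 0.031), so part of the reads of the pair cannot be told apart. Piezo2, the touch receptor channel, had 24.8, 21.4, 12.4 and 24.6 CPM in siPAK4 libraries, against 28.6, 30.4, 32 and 30.2 CPM in siControl libraries. The siControl libraries were close together, and siPAK4 replicate 3 was far below the rest (log2 fold change −0.54, SE 0.171, adjusted p = 0.036). This call was lost in 9 of 17 alternatives (adjusted p up to 0.11), while without siPAK4 replicate 3 it stood, at −0.36, adjusted p = 0.0019. The 11 endothelial markers summed to 5347, 4603, 3664 and 5227 CPM in siPAK4 libraries, likewise lowest in replicate 3. In siControl libraries they summed to 6316, 6386, 6173 and 6274 CPM (6 of 11 lower, 3 higher). The part of endothelial cells in the Piezo values was not tested.

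Several channel genes lie beside a relative on the chromosome, and in 2 such pairs the neighbours moved in opposite directions. Scn3a and Scn2a are 53.2 kb apart on chromosome 2: the first rose (log2 fold change 0.77, adjusted p = 0.0018) and the second fell (log2 fold change −1.30, adjusted p = 0.0076). Kcna3 and Kcna2 are 52.8 kb apart on chromosome 3, and Kcna3 rose (log2 fold change 0.82, adjusted p = 0.0082) while Kcna2 fell (log2 fold change −1.44, adjusted p = 5.4e-04). Kcnj2 and Kcnj16 are 38.2 kb apart on chromosome 11, where Kcnj2 rose (log2 fold change 0.98, adjusted p = 2.0e-05) and Kcnj16 had a negative value that did not pass (log2 fold change −1.14, adjusted p = 0.076) except without siPAK4 replicate 4. Related genes can share reads where their sequences are alike, and how reads matching several genes were counted is not given in the sources used here. The pairs were picked by distance (at most 500 kb between 2 tested channel genes), and the remaining pairs held at most 1 called gene each. Each pair described above had values of opposite sign, while the remaining pairs held both same and opposite signs. Among them Cacna1c and Cacna2d4 both had negative values (log2 fold change −0.11 and −1.48), and Cacng7 and Cacng8 positive ones (0.40 and 0.34). Trpm4 and its neighbour had opposite signs (0.34 and −0.68).

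**Figure D4:**
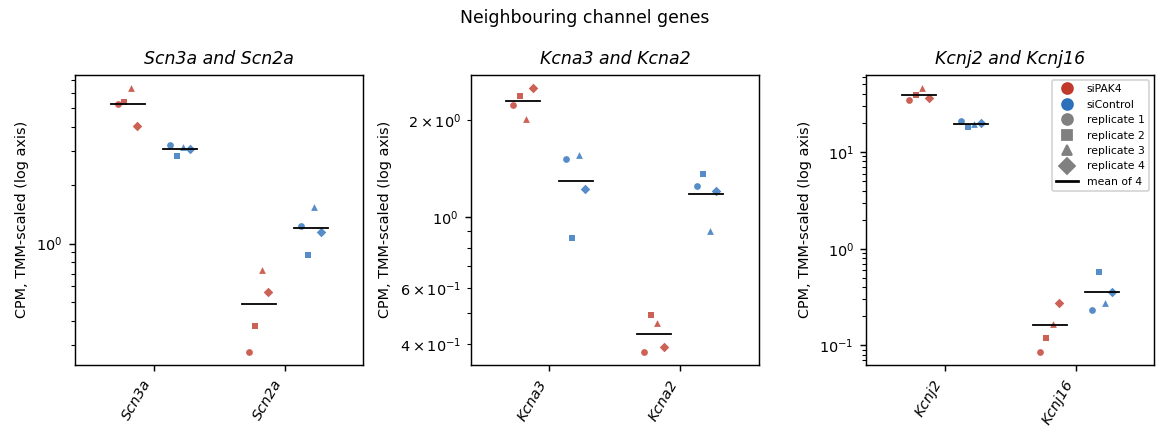
CPM of each library (log axis, a separate scale in each panel) for 3 pairs of neighbouring channel genes, siPAK4 in red left of siControl in blue, with group means as bars. Scn3a, Kcna3 and Kcnj2 are higher in all siPAK4 libraries; Scn2a and Kcna2 are lower in all of them, and the Kcnj16 groups overlap.

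Promoters were looked at because several of these genes fell together. RefSeq promoter entries (GRCm38.p6) were present for 5 of 7 genes that rose, 12 of 20 that fell and 43 of 56 that did not pass, and the 250 bases before each start were searched on both strands. The CArG box, the site bound by SRF, occurred in 1 of 12 genes that fell, 0 of 5 that rose and 0 of 43 that did not pass, and in 1.62% of all genes in the table. That gene was Trpc6, whose box begins 122 bases before the start that the promoter table uses, a start that lies inside the annotated span of the gene (chr9:8544010-8544039, plus strand; capitals mark the box).
Trpc6: cctttcgatcCCTTTAAAGGtggggatcgt
The letters GGAATG, read by TEAD factors, were found in 3 of 12 genes that fell (Kcna5, Kcnk13 and Scn2a), 0 of 5 that rose and 4 of 43 that did not pass, against 14.4% of all genes. The AP-1 letters TGANTCA were in 0 of 12 genes that fell, 0 of 5 that rose and 3 of 43 that did not pass, against 7.82% of all genes. A match describes the letters in this window and no binding was measured.

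Partner genes of calcium signalling were listed beside the channels. Of 38 tested calcium store, pump and sensor genes (44 listed), 11 fell (28.9%, against 14.5% of all tested genes), 2 rose (5.26%, against 12.4%) and 25 did not pass. Their median log2 fold change was −0.10, against 0.0052 for all tested genes. The counts moved with the scaling: with library totals 6 fell (15.8%) and 5 rose (13.2%). Under that scaling 1859 of all 17975 tested genes fell and 3877 rose. Without siPAK4 replicate 3, 10 fell and 4 rose. Itpr3, an inositol trisphosphate receptor that releases stored calcium, had 62, 63.1, 50.9 and 63.8 CPM in siPAK4 libraries, against 88.1, 92.7, 83.5 and 77 CPM in siControl libraries. The groups did not overlap (log2 fold change −0.51, SE 0.0816, adjusted p = 8.2e-04); Itpr1 (log2 fold change −0.33, adjusted p = 0.0035) and Itpr2 (log2 fold change −0.20, adjusted p = 0.024) also fell. Atp2a3, a calcium pump of the endoplasmic reticulum, had 18.8, 15.7, 23.9 and 20.1 CPM in siPAK4 libraries, against 35.8, 38.4, 35.2 and 39 CPM in siControl libraries. It was lower in every siPAK4 library (log2 fold change −0.92, SE 0.108, adjusted p = 9.9e-05), whereas the main pump gene Atp2a2 did not pass (log2 fold change 0.01, adjusted p = 0.93). The calcineurin-regulated factor Nfatc2 fell too (log2 fold change −0.79, adjusted p = 0.0017). The store-operated channel genes Orai1 (log2 fold change −0.02, adjusted p = 0.86), Orai2 (log2 fold change 0.02, adjusted p = 0.89) and Orai3 (log2 fold change 0.20, adjusted p = 0.11) did not pass. The mitochondrial uniporter gene Mcu rose (log2 fold change 0.36, adjusted p = 0.0024).

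In a second list of other channels and pumps, 13 of 37 tested genes fell (52 listed; 35.1%, against 14.5% of all tested genes), 4 rose (10.8%, against 12.4%) and 20 did not pass (median −0.16, against 0.0052). With library totals 11 fell and 7 rose, where 1859 of all 17975 tested genes fell and 3877 rose. Without siPAK4 replicate 3, 17 fell and 5 rose. Asic1, an acid-sensing sodium channel gene, had 1.69, 2.57, 2.65 and 2.54 CPM in siPAK4 libraries, against 6.3, 7.68, 6.65 and 5.94 CPM in siControl libraries. All siPAK4 libraries were below all siControl libraries (log2 fold change −1.49, SE 0.151, adjusted p = 3.4e-05), and its relative Asic3 fell too (log2 fold change −1.15, adjusted p = 0.002). Lrrc8c, a subunit of the volume-regulated anion channel, had 111, 85.5, 63.3 and 105 CPM in siPAK4 libraries, against 187, 168, 174 and 149 CPM in siControl libraries. Replicate 3 of siPAK4 was lowest and the groups were apart (log2 fold change −0.90, SE 0.147, adjusted p = 0.0011). Of its relatives, Lrrc8b fell (log2 fold change −0.43, adjusted p = 0.0021) and Lrrc8d rose (log2 fold change 0.35, adjusted p = 0.0051). Lrrc8a overlapped between the groups and did not pass (log2 fold change −0.19, adjusted p = 0.16). The sodium pump subunit gene Atp1b1 fell (log2 fold change −0.94, adjusted p = 2.7e-05), as did Pkd1, the polycystin-1 gene (log2 fold change −0.65, adjusted p = 0.0025). Hvcn1, the voltage-gated proton channel of phagocytes, rose (log2 fold change 0.47, adjusted p = 1.8e-04), as did the ATP-gated channel gene P2rx4 (log2 fold change 0.20, adjusted p = 0.016).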

How the data were processed

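RNA from 4 siPAK4 and 4 siControl samples was sequenced; per the labels' protocols, a stranded mRNA kit was used on 1 µg of RNA per sample. Per the file headers, the authors deposited whole-number read counts, FPKM and TPM per gene. The deposited counts are not normalized; the authors' FPKM are scaled to depth and gene length and were not used, while the deposited TPM, which sum to the same total in every library, served for levels and alternative fits. Named in the submitters' processing notes, with no roles, were StringTie 2.1.3b, HISAT2 2.1.0, build mm10, FastQC 0.11.7, the tool bcl2fastq 2.20.0, and also Bowtie2 2.3.4.1. How reads were counted, and with which strand setting, is not given in the sources used here. No value column was left unmatched to a sample (0 columns). Genes were kept by filterByExpr (minimum count 10), scaled by TMM and tested with edgeR 4.0.16 (quasi-likelihood, robust; R 4.3.3); SEs come from the F statistic, and 95% intervals use its degrees of freedom. The filter left 17975 of 45777 genes. Alternatives used DESeq2 1.42.0, limma 3.58.1 on log2 TPM with pseudocounts of 0.1 and 1, and other settings. The procedure was tested on simulated counts. Exon overlaps come from GENCODE M21 and gene positions, counted from 1, from RefSeq GRCm38.p6. Deviations of same-numbered samples from their group means correlated at −0.097 to 0.17. The labels do not say whether the numbers mark pairs, and they were not used as pairs in the main fit. No libraries of a group agreed within sampling noise (chi-square over its degrees of freedom 12.6 to 67.8). Members and lists were chosen with earlier results of these data known. Values in every library are given for 12 genes fixed by name, for channel genes past the test with at least 1 CPM, and for the most abundant tested gene of a class with neither; other genes were picked after their values were seen. Some genes under this rule are counted but not reported here by name.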

Additional observations from a re-analysis of the deposited data

Results flagged for a closer look

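Among 64 groups of 4 libraries (32 genes in 2 conditions), 4 held a library far from the rest by Dixon's test, where chance gives about 1 in 20 groups. Cacna2d1 was at 18.5 CPM in siPAK4 replicate 2, with the other siPAK4 libraries between 15.2 and 15.4 CPM. Kcna5 was at 9.22 CPM in siControl replicate 3, with the others between 10.2 and 10.3 CPM. Kcng3 was at 1.21 CPM in siControl replicate 1, with the others between 0.679 and 0.760 CPM. Trpv4 was at 2.60 CPM in siPAK4 replicate 3, with the others between 1.87 and 1.97 CPM.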

How the results depend on the processing

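Over 17 alternatives, 20 of the 27 called channel genes kept their call wherever they were tested, 7 lost it in at least 1 (Cacna1a, Cacna2d1, Cacna2d4, Cacnb3, Kcnk13, Piezo1 and Piezo2), and none of the 27 changed sign. The count of lower channel genes was 16 to 21 and of higher ones 6 to 8 without leaving out a library, and 16 to 25 and 7 to 8 when leaving out each library in turn. With library totals, 3877 of all tested genes were higher and 1859 lower, against 2227 and 2605 by TMM; leaving out each library gave 3543 to 5494 called genes. Pak4 stayed lower (−1.56 to −1.36 when leaving out libraries). Signs turned for genes that did not pass: Cacng8 (−0.12 to 0.62 when leaving out a library, negative without siPAK4 replicate 1), Trpv2 (−0.069 to 0.069, negative without siPAK4 replicate 3) and Trpc4ap (−0.00062 with no low-count filter, and −0.044 to 0.031 when leaving out a library, negative without siControl replicate 4, siPAK4 replicate 1 or siPAK4 replicate 4); the cause was not tested. With the replicate block, 7 channel genes were higher and 20 lower, the same 27 genes, and 4587 of all tested genes were called. Same-numbered libraries correlated at 0.10, −0.043, 0.17 and −0.097, and libraries of unlike numbers at −0.24 to 0.20. With 4 libraries per group these values cannot exclude a pairing by number. The log2(TPM + 1) scale understates changes of low genes.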

Other observations

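The deposited TPM and the counts gave unlike sizes for some scarce genes. Kcnip3, a calcium-binding partner of Kv4 channels, averaged 1.17 ± 0.779 TPM in siPAK4 and 0.472 ± 0.165 TPM in siControl but 1.95 ± 0.938 CPM in siPAK4 and 1.3 ± 0.285 CPM in siControl (SD, n = 4 each); it did not pass on counts (log2 fold change 0.58, adjusted p = 0.18) or on log2(TPM + 0.1) (0.99, adjusted p = 0.10, limma). Kcnn1, a small-conductance calcium-activated potassium channel gene, averaged 0.247 ± 0.0412 TPM in siPAK4 and 0.47 ± 0.113 TPM in siControl but 0.574 ± 0.0709 CPM in siPAK4 and 0.78 ± 0.0361 CPM in siControl; it did not pass on counts (log2 fold change −0.44, adjusted p = 0.13) and was called lower on log2(TPM + 0.1) (−0.70, adjusted p = 0.036, limma). Of 4 non-coding rows with matching symbols, Kcnq1ot1 had reads and the antisense genes Kcnmb4os1, Kcnmb4os2 and Kcnd3os had none.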
